A study of Homo sapiens with 18 samples.

Results

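Long noncoding RNAs and the host transcripts of small RNAs were followed in HMC3 cells across a dose series of oxidized low-density lipoprotein (oxLDL). Genes were taken by symbol, as those beginning with LINC and a digit (long intergenic noncoding RNAs), those of the form MIR, a number and HG (microRNA host genes), and those beginning with SNHG and a digit (small nucleolar RNA host genes). They also had to reach a mean of at least 0.5 FPKM over all libraries, where FPKM is the number of fragments scaled by transcript length and library total. Of 185 listed genes with such symbols, 139 met this minimum: 17 microRNA hosts, 23 snoRNA hosts and 99 LINC genes, out of 13992 listed genes in all. The mean level therefore chose the genes and is given as a description. LINC00537 (0.502 FPKM) and LINC02869 (0.515 FPKM) lay just inside the minimum, and LINC01424 (0.49 FPKM) and LINC01061 (0.477 FPKM) just outside it. MIR503HG was named when the set was chosen and its fall was then known, so its values are given without a test.

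HMC3 is an immortalized human line labelled as microglial and wild type, and oxLDL is the modified lipoprotein that scavenger receptors take up. The cells, kept in MEM with 10% serum, were sampled after 24 h without oxLDL (0 µg/ml) or with it at 1 or 2.5 µg/ml, at 10 µg/ml, or at 50 or 100 µg/ml. Each dose has 3 libraries. RNA was enriched on poly-T beads and sequenced as paired ends, with a kit that does not mark strand, and 1 batch value is given for all libraries. No source says whether the replicate libraries are separate cultures, so p-values describe only how much these libraries differ, and that spread can be technical.

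A microRNA host is transcribed as a long precursor, from which nuclear and cytoplasmic enzymes cut the short microRNA that pairs through its seed with messenger RNAs and lowers their output. A snoRNA host carries snoRNAs in its introns. These guide chemical modification of ribosomal and other RNAs, while the spliced exons often contain many stop codons and are degraded during translation. LINC genes are defined by what they lack, a protein and an overlap with a coding gene, and most have no settled function. Poly-A libraries record the spliced or polyadenylated host and not the mature microRNA or snoRNA, which were not measured.

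Some mature microRNAs of MIR503HG and of the 4 other hosts called at 100 µg/ml are shown here, to give sequences that belong to these hosts. The other arms of their hairpins and miR-10526-3p of MIR100HG are left out. Whether any of the microRNAs changed was not tested. The microRNAs of all 17 hosts matched RefSeq (GRCh38.p14), with 54 mature sequences. Each is written 5′ to 3′ with the seed, bases 2 to 8, in capitals.
hsa-miR-424-5p (MIR503HG, chrX:134546680-134546701, minus strand): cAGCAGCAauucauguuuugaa
hsa-miR-503-5p (MIR503HG, chrX:134546371-134546393, minus strand): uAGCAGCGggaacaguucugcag
hsa-miR-210-3p (MIR210HG, chr11:568112-568133, minus strand): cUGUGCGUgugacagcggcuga
hsa-miR-100-5p (MIR100HG, chr11:122152275-122152296, minus strand): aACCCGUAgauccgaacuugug
hsa-let-7a-5p (MIR100HG, chr11:122146568-122146589, minus strand): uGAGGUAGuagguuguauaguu
hsa-miR-125b-5p (MIR100HG, chr11:122099809-122099830, minus strand): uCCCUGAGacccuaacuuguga
hsa-miR-221-3p (MIR222HG, chrX:45746180-45746202, minus strand): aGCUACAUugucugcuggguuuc
hsa-miR-222-3p (MIR222HG, chrX:45747036-45747056, minus strand): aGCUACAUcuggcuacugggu
hsa-miR-4435 (MIR4435-2HG, chr2:111321061-111321082, minus strand): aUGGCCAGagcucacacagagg
The seeds of miR-424-5p and miR-503-5p were equal at 6 of 7 bases, and those of miR-221-3p and miR-222-3p at 7 of 7. The let-7a-5p seed also occurs in miR-4458, whose host MIR4458HG is among the 17. The MIR503HG gene of RefSeq spans chrX:134543377-134546630 on the minus strand. MiR-503 lies inside it, while mature miR-424-5p lies just before its first base. The 250 bases before to 50 bases after that start (chrX:134546581-134546880, minus strand, RefSeq GRCh38.p14) are printed to show this, with miR-424-5p in capitals, 71 bases before the gene start.
MIR503HG start: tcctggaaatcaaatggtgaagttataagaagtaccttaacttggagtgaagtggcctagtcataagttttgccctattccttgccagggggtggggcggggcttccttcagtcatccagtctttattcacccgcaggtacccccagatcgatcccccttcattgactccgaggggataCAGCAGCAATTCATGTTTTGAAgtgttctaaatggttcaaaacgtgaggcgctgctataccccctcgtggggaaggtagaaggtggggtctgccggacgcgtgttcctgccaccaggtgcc

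The libraries held 13902719 to 37338597 reads, as whole numbers recovered from the steps of the FPKM values; the library with the fewest was replicate 3 of 100 µg/ml. The genes of the set are mostly of low level, so counting error limits many of them. Of the 139 genes, 104 had a mean under 5 FPKM, and 36 had fewer than 20 reads in their lowest library. Defining markers of microglia (AIF1, CX3CR1, P2RY12, TMEM119, CSF1R and ITGAM among them) are not in the list of genes. CD68, a lysosomal protein of macrophages, averaged 15 ± 0.68 FPKM in the libraries at 100 µg/ml and 12.3 ± 0.28 FPKM at 0 µg/ml (SD, n = 3 each) and was not called (adjusted p = 0.0512, limma). Of 12 markers of pericytes and fibroblasts 7 were listed and 6 tested, and 3 fell at 100 µg/ml, beside 7.51% of all tested genes. CSPG4, COL1A2 and ACTA2 were tested and not called (fold changes of 0.07, -0.12 and 0.01). The summed level of the 7 was 415 to 465 FPKM at 100 µg/ml, against 586 to 641 FPKM at 0 µg/ml. COL1A1 dominated this sum, with means of 356 and 496 FPKM at these doses. Whether a shift in the kind of cell takes part in the results below was not tested, and in bulk RNA fewer cells of a type cannot be told apart from less RNA per cell.

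All 139 genes passed the filter on low values (0.5 FPKM or more in 3 or more of 18 libraries) and were tested among 12127 genes. Differences are log2 fold changes of FPKM + 0.5 from a limma fit over all 6 doses, which understate the change of low genes. A gene was called at a Benjamini-Hochberg adjusted p under 0.05 over all tested genes. At 100 µg/ml 25 of the 139 genes were called (18%), 15 higher and 10 lower than at 0 µg/ml. Of all tested genes 15.5% were called, 7.94% higher and 7.51% lower. Without MIR503HG the count was 24 of 138 (17.4%), with 15 higher and 9 lower. At 50 µg/ml 11 genes were called (7.91%), 7 higher and 4 lower, beside 7.47% of all tested genes, 3.78% higher and 3.69% lower. Without MIR503HG the count there was 10 of 138 (7.25%), with 7 higher and 3 lower. The shares at both doses were near the background. Those at 100 µg/ml are given by level further below. The median fold change at 100 µg/ml was 0.04 over the set and -0.004 over all tested genes. Libraries at 100 µg/ml lay all above or all below those at 0 µg/ml for 39 of the 139 genes, beside 33.4% of all tested genes, and at 50 µg/ml for 37, beside 28.2%. Only 8 of the 25 called genes changed by at least 0.5 on the log2 scale, and 2 of them, LINC02057 and MIR503HG, by at least 1. MIR503HG, chosen with its fall known, is counted in each of these numbers.

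At 10 µg/ml none of the 139 genes was called by limma, beside 0.0412% of all tested genes. An unadjusted p under 0.05 was reached there by 8 of the 139 and by 1185 of 12127 tested genes. At 2.5 and 1 µg/ml the counts called were also 0, and 0 genes of the whole table (0%) were called. At 2.5 µg/ml 13 of the 139 had an unadjusted p under 0.05, beside 531 of 12127. At 1 µg/ml it was 9 of the 139, beside 365 of 12127. Limma-voom on the recovered reads called 0 of the set at each of these 3 doses. Over all 6 doses 28 genes of the set were called (20.1%), beside 15.4% of all tested genes. A slope on log2(dose + 1) called 35 (25.2%), 21 upward and 14 downward, beside 25.6% of all tested genes, 13% upward and 12.6% downward. Without MIR503HG the counts were 27 of 138 (19.6%) over all doses and 34 of 138 (24.6%) by the slope.

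**Figure D1:**
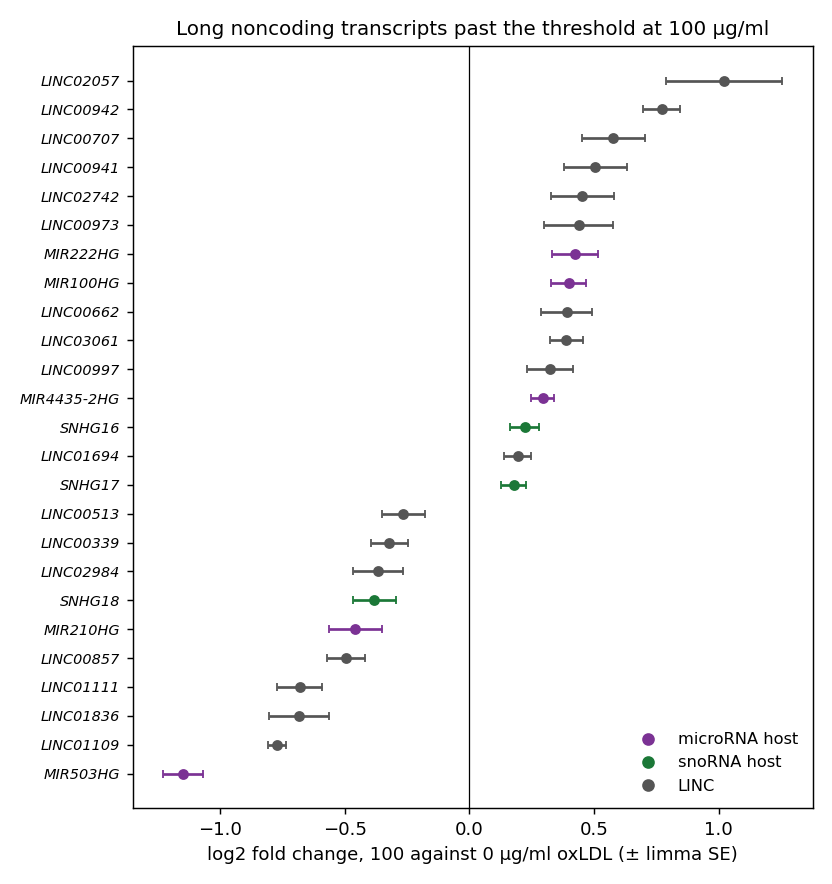
Log2 fold change at 100 against 0 µg/ml oxLDL for the 25 long noncoding transcripts past the threshold, with limma standard errors as bars and colour by class. The plot holds 15 genes above 0 and 10 below, from MIR503HG at -1.15 to LINC02057 at 1.02; MIR503HG was chosen with its fall known.

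Of the 17 microRNA hosts 5 were called at 100 µg/ml, 3 higher and 2 lower, and 4 at 50 µg/ml, 2 higher and 2 lower, counting MIR503HG. Without it 4 of 16 were called at 100 µg/ml (25%, beside 15.5% of all tested genes) and 3 of 16 at 50 µg/ml (18.8%, beside 7.47%). Their median fold change at 100 µg/ml was 0.06, against -0.004 over all tested genes. MIR503HG had the lowest fold change of the whole set. MiR-503 lies inside the RefSeq span of MIR503HG, and mature miR-424-5p lies just before the gene start. Both microRNAs share most of a seed with the miR-15 and miR-16 family and are known to lower cyclins and other cell cycle proteins. Mean levels from 0 to 100 µg/ml were 19.4, 17.3, 15.7, 16.7, 10.1 and 8.48 FPKM. The 3 libraries at 100 µg/ml had 9.16, 8.41 and 7.86 FPKM, against 20.3, 19.4 and 18.4 FPKM at 0 µg/ml. Those at 50 µg/ml had 9.02, 9.59 and 11.7 FPKM. Every library at 50 and 100 µg/ml lay below every library at the 4 lower doses. The fold change was -1.15 ± 0.08 at 100 µg/ml (limma SE), a ratio of means of 0.438. It was -0.92 ± 0.08 at 50 µg/ml. These values rest on 86 to 412 reads per library. The nearest listed gene on that chromosome, PLAC1, lies 19208 bases away and averaged 0.369 ± 0.17 FPKM at 100 µg/ml and 0.501 ± 0.055 FPKM at 0 µg/ml (SD, n = 3 each; adjusted p = 0.36, limma).

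MIR210HG, host of the hypoxia-induced miR-210, also fell. Its libraries had 0.388, 0.534 and 0.374 FPKM at 100 µg/ml, against 0.612, 0.82 and 0.918 FPKM at 0 µg/ml. Those at 50 µg/ml had 0.409, 0.458 and 0.457 FPKM. The groups did not overlap, but each value comes from 12 to 59 reads. Its fold change was -0.46 ± 0.11 at 100 µg/ml (adjusted p = 0.00735, limma) and -0.44 ± 0.11 at 50 µg/ml (adjusted p = 0.0194). With reads thinned to equal depth the call at 100 µg/ml was lost (adjusted p = 0.262), and the call at 50 µg/ml was lost in 5 of 16 other settings. The table also lists MIR210HG_1, a separate row outside the symbol rule, at 0.629 ± 0.059 FPKM at 100 µg/ml and 1.09 ± 0.042 FPKM at 0 µg/ml (SD, n = 3 each). The neighbour RASSF7, 1632 bases away on the opposite strand, had a fold change of -0.32 (adjusted p = 0.0132, limma).

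MIR100HG, MIR4435-2HG and MIR222HG rose. MIR100HG carries miR-100, let-7a-2 and miR-125b-1, and its libraries had 9.77, 9.66 and 9.46 FPKM at 100 µg/ml, against 7.51, 7.37 and 6.7 FPKM at 0 µg/ml. Its fold change was 0.40 ± 0.07 (adjusted p = 0.000846, limma) at 100 µg/ml and 0.28 ± 0.07 (adjusted p = 0.0213) at 50 µg/ml. The call at 50 µg/ml was lost in 3 of 17 other settings. UBASH3B, the nearest listed gene at 232851 bases, rose by 0.21 at 100 µg/ml (adjusted p = 0.000917).

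MIR222HG is the host of miR-221 and miR-222, known repressors of the cell cycle inhibitor CDKN1B. Its libraries had 1.55, 1.58 and 1.89 FPKM at 100 µg/ml, against 1.07, 1.14 and 1.14 FPKM at 0 µg/ml. No value of the 2 groups overlapped, and the transcript is long, so these levels rest on 481 to 1470 reads. The fold change was 0.42 ± 0.09 at 100 µg/ml (adjusted p = 0.00453, limma), and 0.29 ± 0.09 at 50 µg/ml, where it was not called (adjusted p = 0.0673).

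MIR4435-2HG had 17.2, 17.3 and 18.3 FPKM at 100 µg/ml, against 14.7, 14.2 and 13.9 FPKM at 0 µg/ml. Its counterpart in mouse, Morrbid, is known to restrain the apoptosis gene Bcl2l11. The fold change was 0.29 ± 0.05 at 100 µg/ml (adjusted p = 0.000348, limma) and 0.20 ± 0.05 at 50 µg/ml (adjusted p = 0.0153), where the call was lost in 2 of 17 other settings. The gene is a near copy of CYTOR on the same chromosome and overlaps LOC101927283 on the other strand, so its reads cannot be assigned to it with certainty. CYTOR had 9.9, 10.2 and 9.54 FPKM at 100 µg/ml, against 7.99, 7.31 and 7.98 FPKM at 0 µg/ml, with a fold change of 0.33 (adjusted p = 0.0287, limma).

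**Figure D2:**
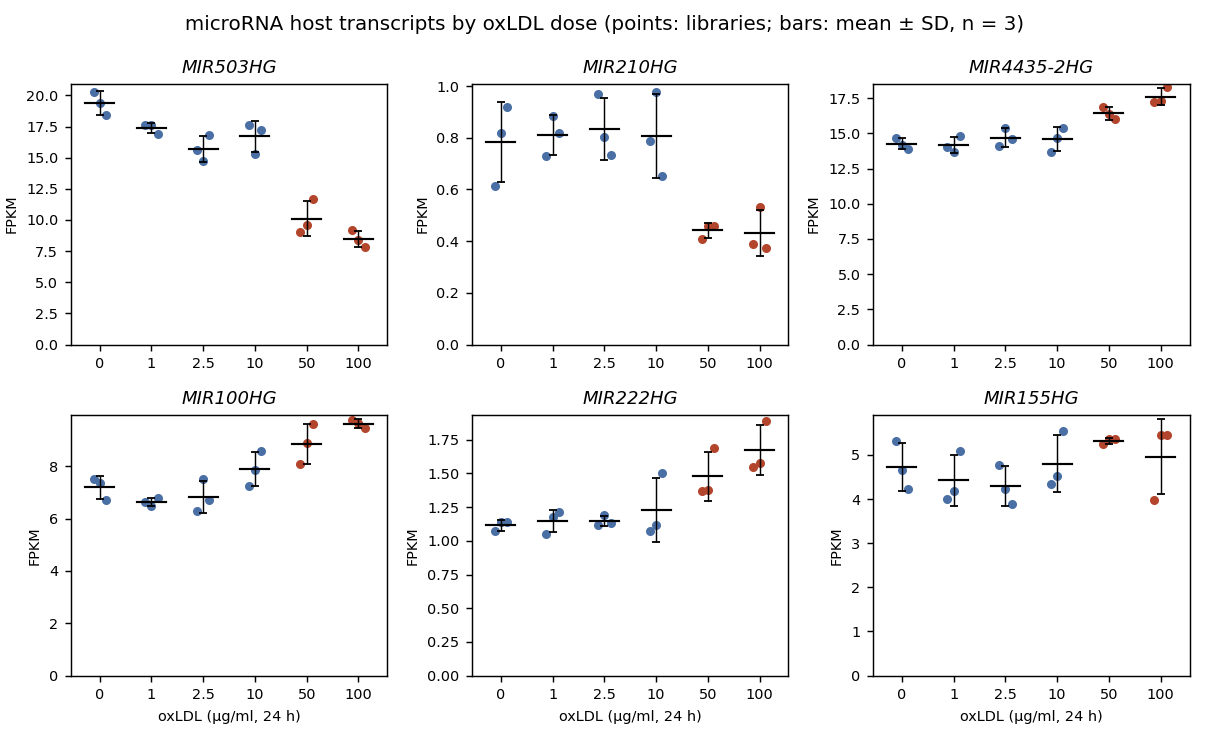
FPKM of 6 microRNA hosts by oxLDL dose in evenly spaced steps, with 1 point per library (red at 50 and 100 µg/ml, blue at lower doses), the mean as a bar and the SD as whiskers (n = 3). MIR503HG and MIR210HG are lower at 50 and 100 µg/ml than at 0 µg/ml, and MIR155HG at 100 µg/ml (3.98 to 5.46 FPKM) overlaps its range at 0 µg/ml (4.23 to 5.31 FPKM).

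The other 12 microRNA hosts were not called at 100 µg/ml, with fold changes of -0.67 to 0.24. MIR155HG, the precursor of miR-155 that activated immune cells induce, had 3.98, 5.44 and 5.46 FPKM at 100 µg/ml and 5.31, 4.65 and 4.23 FPKM at 0 µg/ml (fold change 0.06 ± 0.12, adjusted p = 0.816, limma). MIR17HG, which carries the miR-17-92 cluster driven by MYC, had a fold change of 0.00 ± 0.11 (adjusted p = 0.999). MIR34AHG, host of the p53-induced miR-34a, had 0.13 ± 0.12 (adjusted p = 0.537). MIR181A2HG had 1.54, 1.34 and 0.932 FPKM at 100 µg/ml, against 2.52, 2.76 and 1.68 FPKM at 0 µg/ml. All 3 libraries at 100 µg/ml were lower, but on 8 to 46 reads per library the difference was not called (-0.67 ± 0.27, adjusted p = 0.113), while its slope over the doses was (adjusted p = 0.0132). MIR137HG was called over all doses (adjusted p = 0.0433) and by the slope (adjusted p = 0.00666) with a fold change of 0.24 at 100 µg/ml. The remaining 7, MIR4458HG, MIR3677HG, MIR4453HG, MIR1915HG, MIR193BHG, MIR762HG and MIR130AHG, lay at means of 0.538 to 1.44 FPKM and were called by no test.

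Genes around the microRNA hosts were read from lists. Of 14 tested genes of microRNA processing, AGO2, which loads microRNAs and cleaves their targets, was called at 100 µg/ml (4.08 ± 0.23 FPKM against 3.41 ± 0.04 FPKM at 0 µg/ml, SD, n = 3 each; fold change 0.23, adjusted p = 0.0104, limma). The median fold change of the 14 was 0.01, against -0.004 over all tested genes, of which 15.5% were called. Of 19 tested genes reported as targets of miR-424 or miR-503, 4 rose and 4 fell at 100 µg/ml, beside 7.94% of all tested genes higher and 7.51% lower, with a median of 0.06. SMURF2, a ubiquitin ligase of TGF-beta signaling, averaged 36.1 ± 2.4 FPKM at 100 µg/ml and 29 ± 0.5 FPKM at 0 µg/ml (adjusted p = 0.000528, limma). SMAD7, an inhibitor of the same pathway, averaged 3.55 ± 0.2 and 4.91 ± 0.02 FPKM at these doses (adjusted p = 0.00157). KIF23, a kinesin of cell division, fell by 0.16 (adjusted p = 0.00159), and the cyclin gene CCND3 rose by 0.14 (adjusted p = 0.00218). The other 4 called targets, named after their values were seen, were CCND1 at 0.34 (adjusted p = 0.00522), MAP2K1 at 0.19 (adjusted p = 0.0023), ANLN at -0.16 (adjusted p = 0.0159) and FGF2 at -0.15 (adjusted p = 0.0405).

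The snoRNA hosts were the abundant class. They held 76.7% of the summed mean FPKM of the 139 genes and 11 of the 12 genes at 20 FPKM or more, and each of the 23 has at least 1 snoRNA gene inside its span in RefSeq. SNHG5 was the highest at 312 FPKM, ahead of SNHG1 at 149, SNHG16 at 126, SNHG29 at 81.3 and SNHG6 at 64.5 FPKM as means over all libraries. SNHG14, with 83 snoRNA genes in the imprinted region around UBE3A, was the lowest at 1.0 FPKM. At 100 µg/ml 3 of 23 were called (13%, beside 15.5% of all tested genes), 2 higher and 1 lower. The median fold change was 0.08, against -0.004 over all tested genes, and 17 of 23 were above 0, beside 5882 of 12127. At 50 µg/ml limma called 0 of 23, beside 7.47% of all tested genes. There 3 of 23 had an unadjusted p under 0.05, beside 2656 of 12127. The summed level of the 23 hosts was 1056 to 1164 FPKM at 100 µg/ml and 1027 to 1098 FPKM at 0 µg/ml, and the ranges overlapped.

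SNHG16, with 3 snoRNA genes, had 141, 138 and 140 FPKM at 100 µg/ml, against 117, 115 and 127 FPKM at 0 µg/ml. The libraries at 100 µg/ml were all higher, by 0.22 ± 0.06 (adjusted p = 0.0161, limma). CYGB, 6571 bases away on the opposite strand, fell (-0.39, adjusted p = 0.00161). SNHG17, which carries SNORA71 genes, had 71.0, 67.8 and 68.9 FPKM at 100 µg/ml, against 59.6, 59.2 and 64.9 FPKM at 0 µg/ml (0.18 ± 0.05, adjusted p = 0.0285). It was lost in 6 of 17 other settings, with an adjusted p of up to 0.109, and SNHG16 in 3, with up to 0.0712. SNHG18 fell, with 8.67, 9.06 and 7.29 FPKM at 100 µg/ml, against 11.5, 11.1 and 10.3 FPKM at 0 µg/ml (-0.38 ± 0.09, adjusted p = 0.00683), and no setting ended that call.

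Of the 5 most abundant hosts SNHG16 alone was called at 100 µg/ml. SNHG5 had 349, 311 and 368 FPKM at 100 µg/ml and 293, 314 and 342 FPKM at 0 µg/ml (0.12 ± 0.07, adjusted p = 0.286, limma). SNHG1, with 8 snoRNA genes, averaged 145 ± 3.6 and 152 ± 3.3 FPKM at these doses (SD, n = 3 each; -0.08 ± 0.03, adjusted p = 0.108), and its libraries at 100 µg/ml were all below those at 0 µg/ml. SNHG29 had a fold change of -0.02 ± 0.04 (adjusted p = 0.752) and shares its locus with LRRC75A on the other strand, and SNHG6 had 0.08 ± 0.06 (adjusted p = 0.409). The slope over the doses also called SNHG4 (adjusted p = 0.0131), SNHG20 (adjusted p = 0.022) and SNHG12 (adjusted p = 0.0318), the last downward, and SNHG20 was called over all doses (adjusted p = 0.0122). In RefSeq SNHG4 overlaps MATR3 and SNHG20 overlaps SEC14L1 on the same strand, and SNHG12 overlaps TRNAU1AP on the other. Reads of these hosts may thus not be separate from those of the overlapping genes. The 6 tested snoRNA hosts with other names had a median of -0.01 and none was called at 100 µg/ml. Of 11 tested snoRNP protein genes NAF1, an assembly factor of H/ACA particles, was called (0.20, adjusted p = 0.0415, limma), and of 14 genes of nonsense-mediated decay, the pathway that degrades many spliced hosts, UPF3A was called (-0.19, adjusted p = 0.0249). Their medians were 0.04 and 0.00, and 15.5% of all tested genes were called at 100 µg/ml.

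**Figure D3:**
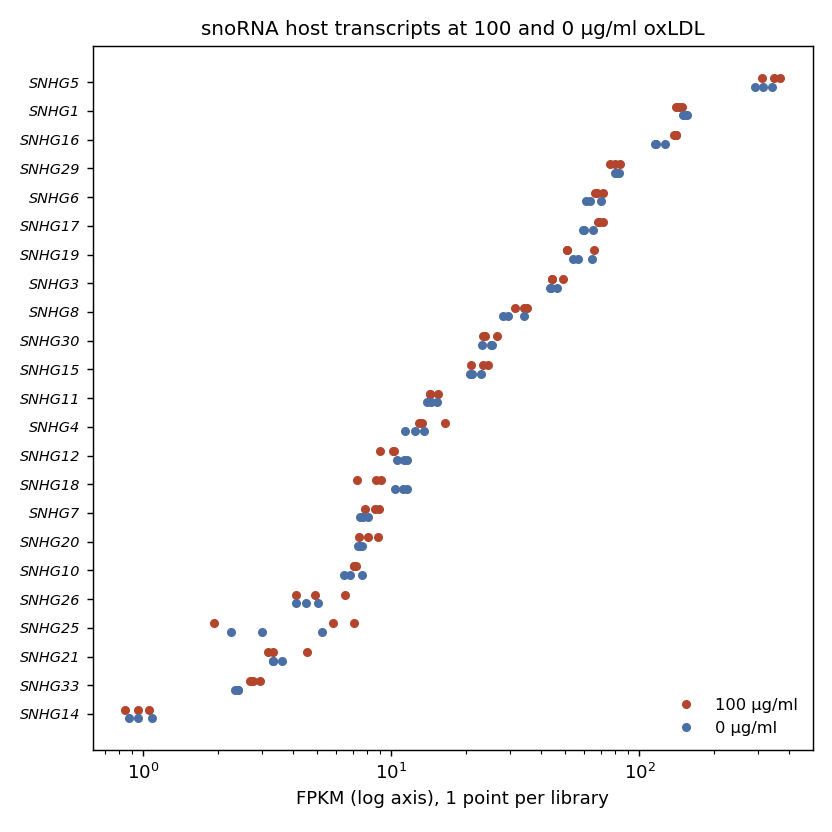
FPKM of the 23 snoRNA hosts on a log axis, ordered by mean level, with 1 point per library at 100 µg/ml (red) and 0 µg/ml (blue). The groups overlap for most genes and are apart for 6 of the 23, beside 33.4% of all tested genes. Among the 6 are SNHG16 (138 to 141 FPKM at 100 µg/ml, 115 to 127 FPKM at 0 µg/ml) and SNHG18 (7.29 to 9.06 FPKM at 100 µg/ml, 10.3 to 11.5 FPKM at 0 µg/ml).

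Of the 99 LINC genes 17 were called at 100 µg/ml, 10 higher and 7 lower (17.2%, beside 15.5% of all tested genes). At 50 µg/ml 7 of the 99 were called, 5 higher and 2 lower (7.07%, beside 7.47%). Their median fold change at 100 µg/ml was 0.02. LINC01109 had the smallest adjusted p of the set and was also the most abundant LINC gene, with a mean of 28.5 FPKM. It lies at chr8:76404119-76405090 on the plus strand. The libraries at 100 µg/ml had 19.6, 18.6 and 19.2 FPKM, against 33.7, 32.7 and 32.8 FPKM at 0 µg/ml. Those at 50 µg/ml had 22.8, 23.1 and 21.5 FPKM, and those at 10 µg/ml 29.2, 29.2 and 28.4 FPKM. Libraries at each of these 3 doses lay wholly below those at 0 µg/ml. At 10 µg/ml such a gap, in either direction, was found for 2050 of 12127 tested genes. The fold change was -0.77 ± 0.04 at 100 µg/ml (adjusted p = 2.95e-10, limma) and -0.55 ± 0.04 at 50 µg/ml (adjusted p = 8.79e-08). At 10 µg/ml it was -0.19 ± 0.04 and not called (adjusted p = 0.126).

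LINC01111 begins 1564 bases downstream on the same strand and fell with it. Its libraries had 4.47, 4.31 and 3.2 FPKM at 100 µg/ml, against 6.55, 6.72 and 6.66 FPKM at 0 µg/ml (-0.68 ± 0.09, adjusted p = 8.18e-05, limma). The libraries at 50 µg/ml had 4.83, 5.24 and 5.82 FPKM, also below those at 0 µg/ml, and the difference was not called (-0.31 ± 0.09, adjusted p = 0.0524). The next listed gene, ZFHX4-AS1 on the minus strand, had 3.0, 3.18 and 2.81 FPKM at 100 µg/ml, against 4.1, 5.15 and 4.99 FPKM at 0 µg/ml (-0.58 ± 0.07, adjusted p = 2.6e-05). ZFHX4, a zinc finger homeobox gene that overlaps the start of its antisense RNA, averaged 4.45 ± 0.42 and 5.04 ± 0.39 FPKM at these doses (SD, n = 3 each; -0.16, adjusted p = 0.196), and PEX2 beyond it had -0.08 (adjusted p = 0.289). ZFHX4 and PEX2 were chosen after values along the stretch were seen. In GENCODE 29 LINC01109 extends 485 bases into LINC01111, and LINC01111 overlaps ZFHX4-AS1 on the opposite strand by 33157 bases, so reads of the 3 noncoding genes may not be separate.

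**Figure D4:**
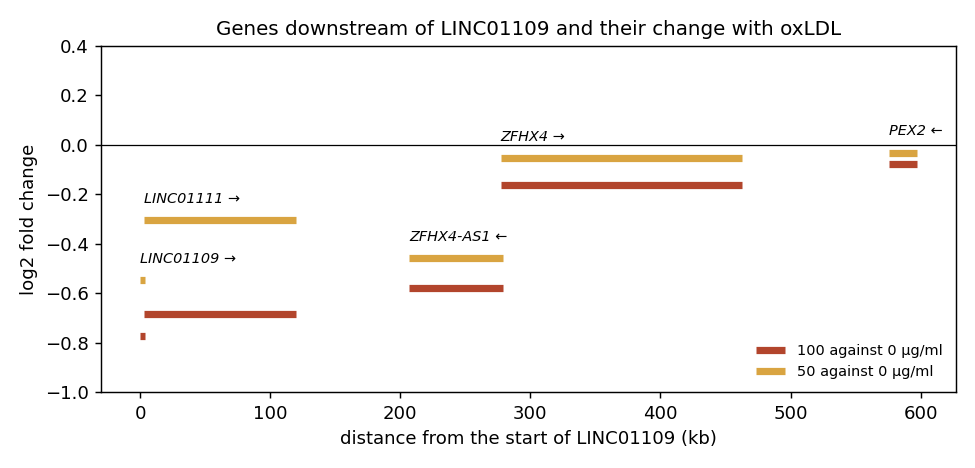
Log2 fold change of LINC01109 and the genes downstream of it, drawn at their RefSeq spans in kb from the LINC01109 start, at 100 (red) and 50 µg/ml (yellow) against 0 µg/ml; arrows give the strand, and LINC01109, 0.971 kb long, is drawn wider than scale. The 3 noncoding genes lie at -0.77, -0.68 and -0.58 at 100 µg/ml, against -0.16 for ZFHX4 and -0.08 for PEX2.

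LINC00942 rose the most among genes above 2 FPKM. It spans chr12:1500491-1504424 on the plus strand, 4558 bases from ERC1, which had a fold change of 0.01 at 100 µg/ml (adjusted p = 0.968, limma). The libraries at 100 µg/ml had 6.72, 6.85 and 7.81 FPKM, against 4.25, 4.16 and 3.51 FPKM at 0 µg/ml. Those at 50 µg/ml had 6.67, 6.29 and 6.78 FPKM, so all libraries at the 2 highest doses lay above those at 0 µg/ml. LINC00942 differed by 0.77 ± 0.07 at 100 µg/ml (adjusted p = 2.64e-06) and 0.67 ± 0.07 at 50 µg/ml (adjusted p = 3.2e-05). At 10 µg/ml it was not called (0.10 ± 0.07, adjusted p = 0.636). Its promoter (chr12:1500241-1500540, plus strand, RefSeq GRCh38.p14) is shown because it holds the letters TGACNNNGC, the core of the antioxidant response element bound by NRF2, in capitals 125 bases before the gene start.
LINC00942 promoter: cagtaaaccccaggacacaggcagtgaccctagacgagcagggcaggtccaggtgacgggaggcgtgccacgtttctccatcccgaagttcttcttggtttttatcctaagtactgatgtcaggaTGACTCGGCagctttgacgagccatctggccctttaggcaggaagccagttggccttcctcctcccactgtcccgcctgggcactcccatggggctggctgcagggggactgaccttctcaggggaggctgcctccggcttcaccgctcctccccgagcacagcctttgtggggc
Searched on both strands, these letters were in 13.6% of 27305 promoters of that length and in 23 of 104 promoters of the set (22.1%). They were in 2 of 12 promoters of genes higher at 100 µg/ml, those of LINC00942 and LINC02742, and in 1 of 7 of genes lower, that of MIR503HG. The AP-1 letters TGANTCA, which can share bases with that motif, were in 7.76% of all promoters and in 9 of 104 of the set (8.65%). A match in letters describes a sequence and is not evidence of binding.

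Other LINC genes called higher at 100 µg/ml were of lower level than LINC00942, apart from LINC03061 and LINC01694 (means of 11.9 and 8.36 FPKM). LINC02057 had 1.92, 1.17 and 1.35 FPKM at 100 µg/ml, against 0.304, 0.405 and 0.728 FPKM at 0 µg/ml, the highest fold change of the set (1.02 ± 0.23, adjusted p = 0.00607, limma). These values rest on only 3 to 28 reads, and with reads thinned to equal depth the call was lost (adjusted p = 0.122). Its neighbour ZSWIM6, 67329 bases away, rose by 0.41 (adjusted p = 0.000841). LINC00707 had 1.4, 1.97 and 1.99 FPKM at 100 µg/ml, against 1.09, 1.01 and 0.957 FPKM at 0 µg/ml (0.58 ± 0.13, adjusted p = 0.00517). It stood as high at 50 µg/ml, with 1.71, 1.74 and 1.97 FPKM (0.60 ± 0.13, adjusted p = 0.00855). LINC00941 had 3.54, 3.98 and 4.36 FPKM at 100 µg/ml, against 2.75, 2.54 and 2.61 FPKM at 0 µg/ml (0.51 ± 0.13, adjusted p = 0.0106), and was lost in 2 of 17 other settings. LINC03061, at a mean of 11.9 FPKM, had 14.1, 14 and 15.7 FPKM at 100 µg/ml, against 11.5, 11.1 and 10.6 FPKM at 0 µg/ml (0.39 ± 0.07, adjusted p = 0.000702). None of these groups overlapped.

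The remaining rises at 100 µg/ml were LINC02742 (0.45), LINC00973 (0.44), LINC00662 (0.39), LINC00997 (0.32) and LINC01694 (0.19), with adjusted p of 0.0166 to 0.0426 (limma). LINC00973 was lost in 7 of 17 other settings, LINC02742 and LINC00662 in 5 each, LINC00997 in 4 and LINC01694 in 3. LINC02742 was also called at 50 µg/ml (0.53, adjusted p = 0.0177) and lost there in 5 settings. So was LINC00662 (0.36, adjusted p = 0.0472), which shares its locus with LINC02987 on the opposite strand and was lost there in 10 settings. LINC01483 was called at 50 µg/ml (0.72 ± 0.21, adjusted p = 0.0467) and lost in 10 settings. At 100 µg/ml LINC01483 had 0.62 ± 0.21 (adjusted p = 0.0561).

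Of the LINC genes that fell, LINC01836 had 1.49, 1.9 and 2.17 FPKM at 100 µg/ml, against 3.62, 3.28 and 2.89 FPKM at 0 µg/ml (-0.68 ± 0.12, adjusted p = 0.00104, limma). It averaged 2.79 ± 0.25 FPKM at 50 µg/ml and was not called there (-0.19 ± 0.12, adjusted p = 0.387). LINC00857 had 3.2, 3.53 and 3.06 FPKM at 100 µg/ml, against 5.69, 4.37 and 4.43 FPKM at 0 µg/ml (-0.50 ± 0.08, adjusted p = 0.000324). ANXA11, an annexin gene 1902 bases away on the opposite strand, also fell, by 0.27 (adjusted p = 0.00167). LINC00339 (-0.32, adjusted p = 0.00657) and LINC02984 (-0.37, adjusted p = 0.019) were the others. LINC00339 was lost in 1 of 17 other settings and LINC02984 in 5 of 16.

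LINC00513 lies at chr7:130913464-130921946 on the plus strand, inside the span of LINC-PINT, a p53-induced long noncoding RNA of the opposite strand. LINC00513 had 1.53, 1.58 and 1.67 FPKM at 100 µg/ml, against 2.05, 1.92 and 2.08 FPKM at 0 µg/ml, and 1.38, 1.11 and 1.22 FPKM at 50 µg/ml. LINC00513 differed by -0.54 ± 0.09 at 50 µg/ml (adjusted p = 0.00103, limma) and -0.27 ± 0.09 at 100 µg/ml (adjusted p = 0.0432), where the call was lost in 9 of 17 other settings. The difference between these doses was not tested. LINC-PINT had 2.77, 2.86 and 3.43 FPKM at 100 µg/ml, against 1.42, 1.56 and 1.37 FPKM at 0 µg/ml, and 1.95, 2.42 and 2.73 FPKM at 50 µg/ml. Its fold changes were 0.85 (adjusted p = 5.36e-05) and 0.55 (adjusted p = 0.00557). Libraries without strand cannot assign reads of the shared stretch, so neither the fall nor its size at 100 µg/ml is certain for LINC00513.

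**Figure D5:**
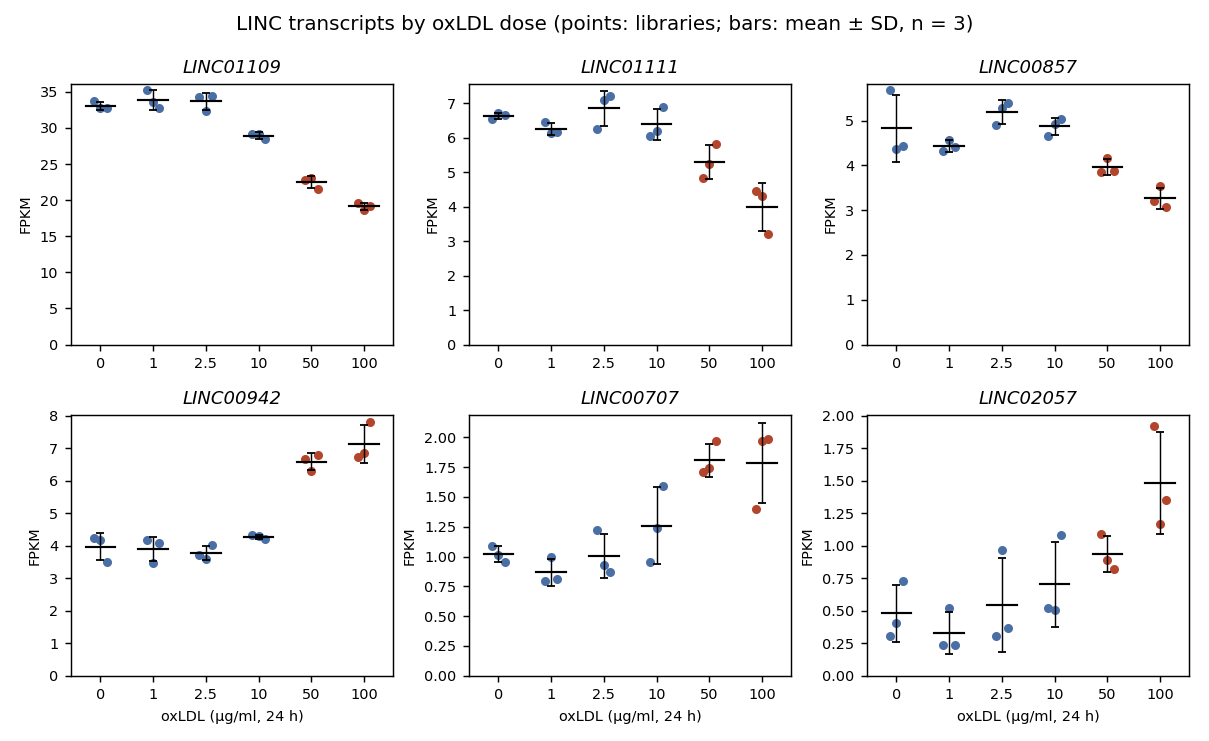
FPKM of 6 LINC genes by oxLDL dose in evenly spaced steps, with 1 point per library (red at 50 and 100 µg/ml, blue at lower doses), the mean as a bar and the SD as whiskers (n = 3). LINC01109 at 10 µg/ml (28.4 to 29.2 FPKM) lies below its range at 0 µg/ml (32.7 to 33.7 FPKM), a difference that was not called. LINC00942 is higher only at 50 and 100 µg/ml.

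The slope or the test over all doses called 5 LINC genes that no single dose did. LINC02693 (slope adjusted p = 0.00127, limma) and LINC00899 (slope adjusted p = 0.0021) rose with dose, LINC01224 (slope adjusted p = 0.00862) and LINC02861 (slope adjusted p = 0.0223) fell, and LINC01444 was called over all doses (adjusted p = 0.0297). In all, 36 of the 139 genes, MIR503HG counted among them, were called by some test and 103 by none. For the 82 LINC genes not called at 100 µg/ml, fold changes ran from -0.44 to 0.62. At doses under 50 µg/ml the widest values were those of LINC02951 at 1 µg/ml (0.63 ± 0.22) on 12 to 27 reads, and MIR762HG at 10 µg/ml (-0.46 ± 0.13) on 10 to 37 reads, neither called (adjusted p = 1.0 and 0.457).

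Among all tested genes the share called was higher at higher levels, so the set is also given by level. Of the 43 genes of the set under 1 FPKM 3 were called at 100 µg/ml (6.98%), beside 6.7% of all tested genes at that level. Of 61 at 1 to 5 FPKM 11 were called (18%), beside 11.1%. Of 23 at 5 to 20 FPKM, counting MIR503HG, 8 were called (34.8%), beside 17.4%. Of 12 at 20 FPKM or more 3 were called (25%), beside 23.1%. From the lowest bin up, the median standard error was 0.124, 0.115, 0.066 and 0.059 for the set. For all tested genes it was 0.108, 0.078, 0.055 and 0.042. A change in the lowest bin had to be larger to be called.

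Of the 25 genes called at 100 µg/ml, MIR503HG counted among them, 10 had a nearest tested gene that was called too. For 7 it went in the same direction and for 3 in the opposite one. Of 112 uncalled genes with a known position and neighbour, 15 did. The pair LINC01109 and LINC01111 counts once for each gene, and the opposite cases were SNHG16 with CYGB, LINC00513 with LINC-PINT and LINC02984 with ATP6V1H (0.26, adjusted p = 0.000757, limma). In RefSeq 23 genes of the set overlap a listed gene on the other strand, and 3 of these, MIR4435-2HG, LINC00513 and LINC00662, were among the 25. LINC02210_1 and LINC02861 had no position in the table used.

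The summed level of the set was 0.341% to 0.37% of all FPKM in the libraries at 100 µg/ml and 0.338% to 0.347% in those at 0 µg/ml, and the ranges overlapped. As a share of recovered reads, which gives long transcripts more weight, it was 0.248% to 0.261% at 100 µg/ml and 0.239% to 0.241% at 0 µg/ml, and these ranges did not overlap. The microRNA hosts summed to 53.7 to 55.9 FPKM at 100 µg/ml and 56.9 to 62.7 FPKM at 0 µg/ml. Without MIR503HG the order was the reverse, with 44.5 to 48.1 FPKM at 100 µg/ml and 38.4 to 42.4 FPKM at 0 µg/ml. By share of reads, with MIR503HG, the microRNA hosts held 0.0258% to 0.0276% at 100 µg/ml and 0.0214% to 0.0227% at 0 µg/ml. The LINC genes summed to 258 to 266 FPKM at 100 µg/ml and 264 to 271 FPKM at 0 µg/ml.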

How the data were processed

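The deposited table holds FPKM for 13992 genes in 18 libraries. HISAT2 2.0.5, featureCounts, DESeq2 and build hg38 appear in the submitters' processing notes, with no role given; the annotation release and strand setting are not given in the sources used here. Whole reads were recovered from the steps of the FPKM values. They gave the depths, the reads per gene and the shares of reads, and were tested only in other settings. Values were tested as log2(FPKM + 0.5) with limma 3.58.1 under R 4.3.3, each dose having a mean of its own (12 residual degrees of freedom, variance trend), on 12127 genes with at least 0.5 FPKM in at least 3 libraries; 1865 fell below. Tests were two-sided and Benjamini-Hochberg adjusted within each comparison. The scripts were tested on simulated data. Genes and lists were chosen with earlier results of these data known, so lists are given by counts and medians. The text names each called gene of the set, all microRNA hosts, the 5 most abundant genes, those at the minimum, nearest neighbours and up to 4 called genes of each list; others were chosen after their values were seen. Positions and sequences are from RefSeq (GRCh38.p14) and, where said, GENCODE 29, neither known to be the authors' annotation. Other settings were pseudocounts of 0.1 and 1, other filters and scalings, no variance trend, limma-voom, thinned reads, a replicate block, fits of 2 doses, and each library left out. A result on a cell type marker is not reported here.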

Additional observations from a re-analysis of the deposited data

How the results depend on the processing

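Counts of called genes changed by more than 1.5 times in 2 settings with all libraries: at 100 µg/ml 16 genes were called with reads thinned to equal depth (9 higher, 7 lower), against 25, and at 50 µg/ml 18 by limma-voom (13 higher, 5 lower), against 11. Leaving out 1 library at a time gave 16 to 24 genes at 100 µg/ml, 6 to 10 at 50 µg/ml, 22 to 29 over all doses and 32 to 37 by the slope. The count at 100 µg/ml was 16 (8 higher, 8 lower) without replicate 3 of that dose, the library with the fewest reads. At 50 µg/ml it was 6 without replicate 3 of 0 µg/ml and 6 without replicate 1 of 50 µg/ml. At 1, 2.5 and 10 µg/ml all settings gave 0. Of the 24 genes called at 100 µg/ml besides MIR503HG, 11 were called in every setting and 13 were lost in at least 1; at 50 µg/ml 4 of 10 were called in every setting. None of these calls reversed in any setting run. The fold change of MIR503HG at 100 µg/ml ran from -1.21 to -1.10 over 17 settings. Replicate numbers gave no clear pairing of the libraries: 10 of 45 pairs with the same number correlated above 0.1, and 3 of 18 libraries correlated best with their own number. The pairs above 0.1 were uneven, with 6 of 15 for replicate 1, 1 of 15 for replicate 2 and 3 of 15 for replicate 3. A weak pairing can therefore not be excluded. With the replicate block 28 genes were called at 100 µg/ml and 11 at 50 µg/ml. Scaling moved the median fold change of all genes by less than 0.1. With 36 genes under 20 reads in their lowest library, small changes of these were not detectable at this depth, and intervals for counting error assume independent reads.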

Other observations

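Outside the 3 symbol classes, 10 of 25 other named long noncoding RNAs were tested. At 100 µg/ml 3 of the 10 rose, beside 7.94% of all tested genes, with a median fold change of 0.05 (all tested genes -0.004). LUCAT1, a stress-induced transcript, had 0.719, 0.742 and 0.926 FPKM at 100 µg/ml, against 0.0482, 0.0367 and 0.213 FPKM at 0 µg/ml, on 1 to 28 reads per library. The libraries at 100 µg/ml alone were enough to carry it over the filter of 0.5 FPKM in 3 libraries. A gene as low at every dose as LUCAT1 was without oxLDL would not have been tested. The adjusted p of LUCAT1 and its place among the 3 that rose therefore depend in part on the filter. Its fold change was 1.12 ± 0.13 at 100 µg/ml (adjusted p = 1.38e-05, limma) and 0.80 at 50 µg/ml (adjusted p = 0.001). NORAD, which binds Pumilio proteins, had 120, 121 and 145 FPKM at 100 µg/ml, against 103, 110 and 97.9 FPKM at 0 µg/ml (0.30 ± 0.07, adjusted p = 0.00961). CYTOR was the third.

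Genes named as antisense numbered 293 tested, of which 6 rose and 12 fell at 100 µg/ml, with a median of -0.02. Of all tested genes 7.94% were called higher and 7.51% lower, so these counts were under the background. Beside ZFHX4-AS1, the smallest adjusted p were those of L1CAM-AS1 (-0.74, adjusted p = 0.000212, limma), C12orf75-AS1 (0.75, adjusted p = 0.00146) and ZFPM2-AS1 (0.55, adjusted p = 0.00309). Without strand these cannot be told apart from their sense partners. Of 139 tested genes named as divergent transcripts, APCDD1L-DT (0.71, adjusted p = 0.00563) and SUCLG2-DT (0.45, adjusted p = 0.021) rose, and BAIAP2-DT (-0.26, adjusted p = 0.00295) and DHCR7-DT (-0.34, adjusted p = 0.0426) fell. The counts of divergent transcripts were also under the background, and their median was 0.01.

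Among markers of other cell types at 100 µg/ml, the pericyte and fibroblast genes that fell were COL1A1 (-0.48, adjusted p = 0.000708, limma), PDGFRB (-0.51, adjusted p = 0.00175) and THY1 (-0.38, adjusted p = 0.000102). CSPG4, COL1A2 and ACTA2 were tested and not called. Of 6 neuron markers 2 were tested and 1, TUBB3, fell. None of the 2 astrocyte and 1 endothelium markers tested was called.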
